A study of Mus musculus with 42 samples.

Results

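Peaks of the transcription factors SOX2 and LEF1 and of the co-activator β-catenin were examined at 5 genes of the Nodal signalling pathway, Nodal, Tdgf1, Lefty1, Lefty2 and Foxh1, out of 21911 protein-coding genes. The peaks described are those of 30 chromatin immunoprecipitation libraries that overlapped one of these gene bodies extended by 10 kb on each side. The genes were chosen on the SOX2 peak lists themselves, with attention to cells with and without the GSK3 inhibitor CHIR99021 at Nodal, so the SOX2 values for that contrast are given as a description and were not tested. All cells were mouse embryonic stem cell derivatives of the HM1 TetON line, differentiated for 72 h with bFGF and LGK974, which blocks WNT secretion. In the CHIR groups CHIR99021, an activator of WNT/β-catenin signalling, was present for the final 24 h, which gives caudal epiblast-like cells (CEpiLCs), and in the noCHIR group it was left out, which gives epiblast-like cells (EpiLCs). SOX2 was immunoprecipitated from WT noCHIR, WT CHIR, CdxKO CHIR (Cdx1, Cdx2 and Cdx4 all mutated) and T/BraKO CHIR (T/Bra mutated) cells, and β-catenin and LEF1 from the latter 3 groups, with 3 independent biological replicates in each of the 10 groups. Each genotype was carried by its own cell line, so genotype and line cannot be told apart, and neither β-catenin nor LEF1 was analysed here without CHIR.

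Nodal is a TGFβ-family ligand that patterns the epiblast and the primitive streak. It signals through Activin receptors together with the co-receptor encoded by Tdgf1 (Cripto), and the activated SMAD2/3 proteins enter the nucleus and act with the DNA-binding partner FOXH1. Nodal, Lefty1 and Lefty2 are themselves targets of this pathway, and the LEFTY proteins are secreted antagonists of Nodal, so that the pathway holds both a positive and a negative feedback loop.

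The strength of a peak is given here as fold enrichment, the deposited ratio of reads at the summit of a peak to the local background estimated by the peak caller. Lists held between 26940 and 1008922 peaks, and the rank-20000 peak had a fold enrichment of 4.40 to 9.75. For this reason presence was scored in the 20000 best peaks of each list, ranked by deposited −log10 q, as well as in the full list. Agreement between libraries of a group was uneven. Of the regions holding the 20000 best peaks of one SOX2 library, 11.8% to 60.9% were found in another library of its group, with a median of 38.1%, and the 3 WT CHIR libraries were lowest, with mean shares of 15.3%, 15.0% and 18.8%. For β-catenin the shares were 31.6% to 49.4%, and for LEF1 only 4.32% to 8.18%, with a median of 5.42% within groups and 5.87% between them. Patterns of LEF1 peaks therefore rest on lists that had little in common, and read depth was not known from the lists.

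Merging the 20000 best peaks of all lists gave 32082 regions that at least 2 of 3 libraries of some group called. Of these, 14 lay in the windows of the 5 genes: 4 at Nodal, 3 at Lefty1, 3 at Lefty2, 2 at Tdgf1 and 2 at Foxh1. These 14 elements were further split by their summits into 17 sites, a division made after the values were seen, because the main Nodal element was 1879 bp long and held several summits. Distances are from the start site of the gene to the median summit.

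Sequences are shown for the elements of Nodal and for the best-ranked element of Tdgf1, Lefty1 and Lefty2, with a further Lefty1 element that held several motif matches, so that the bound DNA can be read beside its values. They are 201 bases centred on the median summit, from GRCm38.p6 (the build of the lists, mm10), written along the plus strand with capitals on any match to the motifs searched on both strands. The motifs were CCATTGT or CCTTTGT for SOX, CTTTGAA or CTTTGAT for TCF/LEF, AGGTGTGA for T-box, AATCCACA or AATACACA for FOXH1, ATGCAAAT for the POU octamer, and CAATAAA or CCATAAA or TAATAAA or TCATAAA for CDX. None of these strings contains another, and no capitals in the sequences come from overlapping matches.
Nodal, 9.9 kb upstream, chr10:61407982-61408182: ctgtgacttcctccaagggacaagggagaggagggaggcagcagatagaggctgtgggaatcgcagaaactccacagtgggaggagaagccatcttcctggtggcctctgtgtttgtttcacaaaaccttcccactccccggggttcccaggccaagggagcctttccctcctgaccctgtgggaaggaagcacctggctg
Nodal, 7.6 kb upstream, chr10:61410237-61410437: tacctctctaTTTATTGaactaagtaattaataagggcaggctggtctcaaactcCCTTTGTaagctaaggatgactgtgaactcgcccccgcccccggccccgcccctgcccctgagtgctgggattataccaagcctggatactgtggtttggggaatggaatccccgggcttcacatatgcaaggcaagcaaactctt
Nodal, 2.0 kb upstream, chr10:61415906-61416106: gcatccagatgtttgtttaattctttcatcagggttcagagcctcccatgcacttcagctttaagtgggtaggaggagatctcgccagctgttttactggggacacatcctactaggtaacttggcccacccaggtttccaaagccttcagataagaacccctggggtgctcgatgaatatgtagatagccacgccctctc
Nodal, 1.2 kb upstream, chr10:61416694-61416894: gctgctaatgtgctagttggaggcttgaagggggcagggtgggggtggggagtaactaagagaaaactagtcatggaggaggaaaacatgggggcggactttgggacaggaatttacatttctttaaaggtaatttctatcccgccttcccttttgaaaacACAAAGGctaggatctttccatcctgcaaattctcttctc
Tdgf1, 2.0 kb upstream, chr9:110948063-110948263: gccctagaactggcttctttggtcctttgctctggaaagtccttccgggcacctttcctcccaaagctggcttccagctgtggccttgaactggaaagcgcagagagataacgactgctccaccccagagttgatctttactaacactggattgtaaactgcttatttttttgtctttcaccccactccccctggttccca
Lefty1, 1.1 kb upstream, chr1:180933772-180933972: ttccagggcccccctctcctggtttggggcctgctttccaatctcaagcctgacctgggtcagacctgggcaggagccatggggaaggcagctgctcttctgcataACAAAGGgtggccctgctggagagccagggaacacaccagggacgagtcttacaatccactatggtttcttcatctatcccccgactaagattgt
Lefty1, 10.1 kb upstream, chr1:180924806-180925006: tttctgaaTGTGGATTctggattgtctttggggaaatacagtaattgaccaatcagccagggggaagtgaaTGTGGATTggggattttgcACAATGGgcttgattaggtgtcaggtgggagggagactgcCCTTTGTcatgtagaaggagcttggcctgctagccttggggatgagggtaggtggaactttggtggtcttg
Lefty2, 4.3 kb upstream, chr1:180888752-180888952: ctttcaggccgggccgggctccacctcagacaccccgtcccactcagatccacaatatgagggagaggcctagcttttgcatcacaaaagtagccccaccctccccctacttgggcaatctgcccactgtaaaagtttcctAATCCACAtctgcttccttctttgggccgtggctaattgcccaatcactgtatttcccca
The Nodal element 0.2 kb downstream of the start site lies in an untranslated region, and only the 30 bases around its T-box match are shown.
Nodal, 0.2 kb downstream, chr10:61418120-61418149: ttctcagcacaTCACACCTcccctcagcag
All of the 201-base windows shown lie in intergenic DNA. The Foxh1 elements lie in untranslated regions of Foxh1 and of its neighbour Kifc2, and their sequences are not printed.

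A SOX motif was found in 5 of the 17 site windows (29.4%), against 23.8% of the 240000 summit windows of the 20000 best SOX2 peaks, 12.2% of those of β-catenin and 8.71% of those of LEF1. The 5 sites were Nodal 7.6 and 1.2 kb upstream, Lefty1 10.1 and 1.1 kb upstream, and Lefty1 7.2 kb downstream. The strongest Nodal site, 2.0 kb upstream, held none of the searched strings. A TCF/LEF string was in 0 of the 17 windows, against 29.6% of the β-catenin summit windows and 18.9% of those of LEF1. FOXH1 strings were in 2 of the 17 windows (11.8%), against 1.96% of SOX2 summit windows. Both belonged to the Lefty genes. The Lefty1 site 10.1 kb upstream held 2 copies of the FOXH1 string and 2 SOX strings, and the Lefty2 site 4.3 kb upstream held 1 FOXH1 string. A CDX string occurred at 2 sites, Nodal 7.6 kb and Tdgf1 8.2 kb upstream, against 12.3% of SOX2 windows. The T-box string occurred only at the Nodal element 0.2 kb downstream, against 1.48% of β-catenin windows, and the POU octamer occurred at none, against 4.02% of SOX2 windows. These matches describe letters in a window and not bound sites.

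Nodal, the ligand of the pathway (ENSMUSG00000037171, chr10:61417972-61425338, plus strand), carried its peaks in a cluster just upstream of the gene. In the 20000 best SOX2 peaks, the WT noCHIR libraries held 0, 0 and 0 peaks in the Nodal window, against 2, 2 and 3 in WT CHIR. The means were 3.33 ± 1.15 in CdxKO CHIR and 2.33 ± 1.15 in T/BraKO CHIR (SD, n = 3). No group other than noCHIR lacked a SOX2 peak there. The full lists told the groups apart less well, with 4.00 ± 2.65 peaks in WT noCHIR and 8.33 ± 6.11 in WT CHIR, and the WT CHIR lists were also the longer ones, with 205833 to 1008922 peaks against 81239 to 201773.

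**Figure D1:**
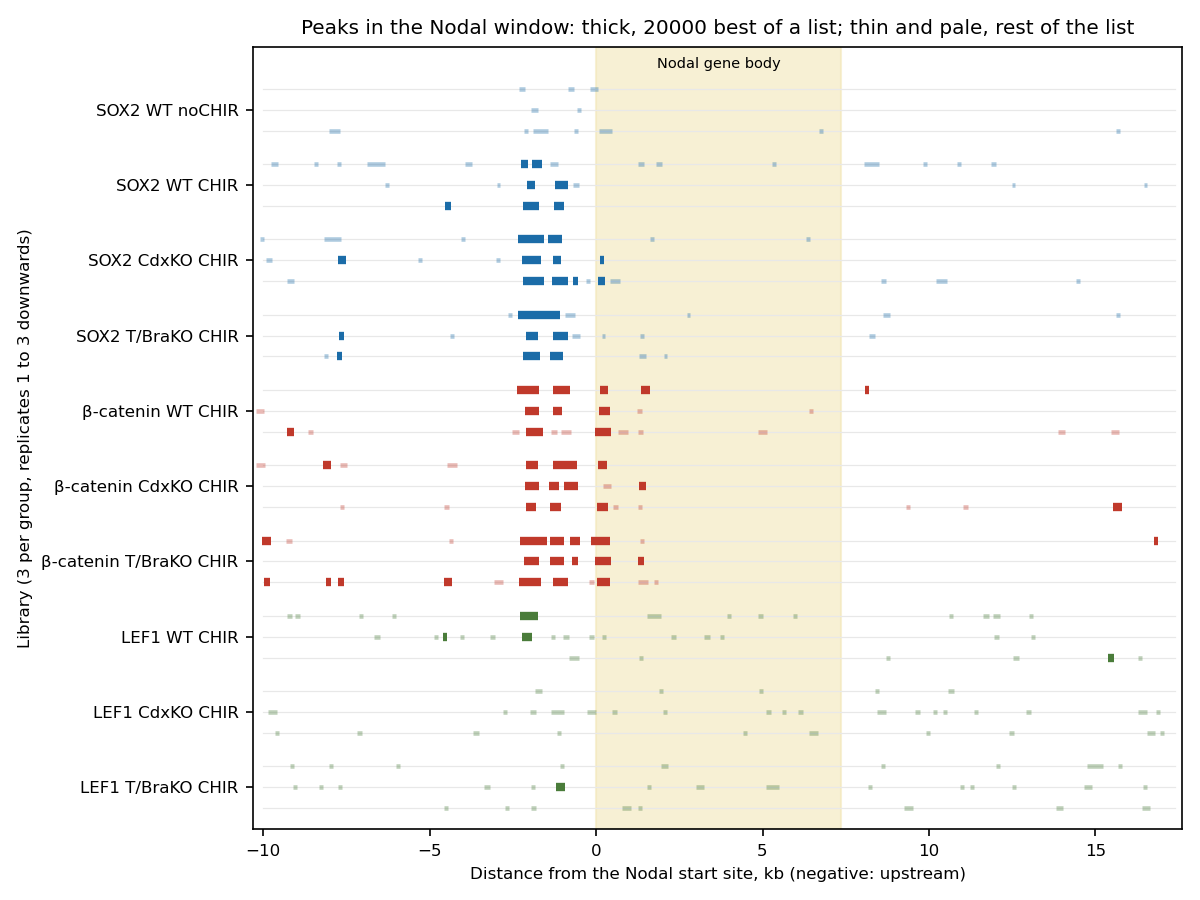
Peaks in the Nodal window of each of the 30 libraries (rows, 3 per group), plotted by distance from the Nodal start site in kb; thick bars are among the 20000 best peaks of a list, thin pale bars are the rest of that list, and the shaded span is the gene body. SOX2 and β-catenin peaks of the CHIR groups stack around 2.0 and 1.2 kb upstream, the 3 noCHIR rows hold only thin bars, and LEF1 bars are scattered.

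The site 2.0 kb upstream of Nodal had a SOX2 summit in all 12 libraries. SOX2 fold enrichment there was 6.02, 4.76 and 5.90 in the 3 noCHIR libraries and 11.8, 9.89 and 11.1 in the 3 WT CHIR libraries. Every WT CHIR value lay above every noCHIR value. By the gene score defined below, 7.25% of all genes separated in this direction. The noCHIR peaks ranked 24471, 47546 and 25462, all outside the 20000 best, whereas the WT CHIR peaks ranked 3321, 2019 and 2780. The noCHIR summits were also spread, at -2182, -1892 and -1722 bp from the start site. The noCHIR peaks of replicates 1 and 2 did not overlap each other. No noCHIR peak covered the median summit of the site, but no peak of WT CHIR replicate 1 did either. That median was taken over summits among the 20000 best peaks, which included none from noCHIR. In CdxKO CHIR the values were 7.90, 10.3 and 6.59, and in T/BraKO CHIR 12.3, 9.42 and 11.7. The order of the means was T/BraKO at 11.1, WT CHIR at 10.9, CdxKO at 8.26 and noCHIR at 5.56, and the libraries of the first 3 overlapped with their neighbours while those of CdxKO and noCHIR did not. The share of all regions in which CdxKO lay above noCHIR was not counted.

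The site 1.2 kb upstream differed more between the media. No noCHIR list, of 81239 to 201773 peaks, held a summit there. Sites were built from summits among the 20000 best peaks, and no noCHIR peak at Nodal was among those. The Nodal sites were thus placed by the libraries with CHIR alone. A missing noCHIR summit follows in part from that definition. With CHIR, SOX2 fold enrichment was 5.89, 14.9 and 10.7 in WT and 10.9, 10.7 and 9.83 in CdxKO, and 6.26 and 12 in 2 of the T/BraKO libraries, while a single broad peak spanned both sites in the remaining one. The WT CHIR value of 5.89, from replicate 1, ranked 125320 of 1008922 peaks, beyond the whole length of the lists of noCHIR replicates 1 and 2, and the other 2 WT CHIR peaks ranked 663 and 4055. A further site 0.7 kb upstream was weak in all groups. SOX2 peaks there were 4.89, 4.98 and 4.14 in the 3 noCHIR libraries, 4.24 in 1 WT CHIR library, 6.36 in 1 CdxKO library, and 5.99 and 5.62 in 2 T/BraKO libraries. The 2 distal Nodal elements were held by few libraries. At the site 7.6 kb upstream no noCHIR list had a SOX2 summit, and 1 WT CHIR list had one at 5.45. Among the mutants, 1 CdxKO list had one at 6.31 and 2 T/BraKO lists at 6.62 and 5.87. The wider element also held weaker SOX2 peaks, of 3.64 in noCHIR replicate 3 and 4.35 in CdxKO replicate 1. At 9.9 kb upstream the best peaks were those of β-catenin in 2 T/BraKO libraries, at 8.02 and 6.34.

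Taken as one element, chr10:61415600-61417478 was called in 3 of 3 WT CHIR and 0 of 3 noCHIR libraries in the 20000 best SOX2 peaks. Of all regions, 0.337% showed this pattern. It was called in all 9 SOX2 libraries with CHIR, from 3 genotypes, and in none of the 3 without, which was true of 26 of 32082 regions (0.0810%). No other element of the 5 genes showed either pattern. The reverse pattern, called in all 3 noCHIR and no WT CHIR libraries, was shown by 9.15% of all regions and by none of the 14 elements. In the full lists, all 6 WT libraries called the Nodal element. The members were chosen with this contrast in view, and these shares are not a test of it. The regions were merged from the lists of all 3 factors. Some of them, such as that 9.9 kb upstream of Nodal, held none of the 20000 best SOX2 peaks. The shares are therefore lower than they would be among regions called by SOX2.

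Of the 3 factors, β-catenin had the highest fold enrichment at Nodal, although values of different antibodies were not put on one scale. At the 2.0 kb site its fold enrichment was 22.5, 25.3 and 35.8 in WT, 26.0, 28.4 and 10.8 in CdxKO, and 65.9, 39.5 and 37.0 in T/BraKO cells. The 3 T/BraKO libraries lay above the 3 WT libraries, and the CdxKO libraries overlapped with WT. The same order of T/BraKO over WT was seen 1.2 kb upstream, with 22.4, 12 and 16.4 against 6.12, 9.55 and 7.78, and CdxKO cells gave 10.5, 19.5 and 7.39. Both sites lie in the same element and were read in the same libraries, so they are not separate observations. By the gene score defined below, 6.65% of all genes had this order, and Nodal did not pass (limma adjusted p = 0.671). At the start site, 0.2 kb downstream, β-catenin peaks were weaker, at 4.47 to 8.70 in WT, 2.96 to 9.39 in CdxKO and 6.64 to 12.8 in T/BraKO, and only 1 CdxKO peak, the one of 2.96, fell outside the 20000 best. T/BraKO libraries held 6.00 ± 1.00 of their 20000 best β-catenin peaks in the Nodal window, against 3.67 ± 1.15 in WT and 4.00 ± 0 in CdxKO (SD, n = 3). In the rest of the gene body, beyond 500 bp from the start site, 3 of 9 β-catenin libraries and no SOX2 or LEF1 library had a peak among the 20000 best.

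LEF1, a DNA-binding partner of β-catenin, gave peaks 2.0 kb upstream of Nodal of 9.75 and 10.8 in 2 WT libraries, 7.63 and 5.49 in 2 CdxKO libraries, and 4.46 and 4.86 in 2 T/BraKO libraries. The remaining library of each group had no summit there. Among the 20000 best peaks only the 2 WT libraries held this site.

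Tdgf1, the co-receptor (ENSMUSG00000032494, chr9:110939603-110946158, minus strand), had an upstream element with 2 sites, and the factors used them unevenly. At the site 2.0 kb upstream, β-catenin fold enrichment was 8.26, 8.42 and 19.7 in WT and 11.5, 11.1 and 14.0 in T/BraKO cells, whereas 1 CdxKO library had a peak, at 6.56. SOX2 at the same site was 12.5 and 20.9 in 2 WT CHIR libraries and 7.65, 7.57 and 15.0 in T/BraKO, against 2.71 and 3.79 in 2 CdxKO libraries and 2.95 in 1 noCHIR library. At the site 1.4 kb upstream CdxKO cells did have β-catenin peaks, of 9.08, 11.7 and 6.09, beside 5.90 and 5.06 in 2 WT libraries and 9.64 and 6.08 in 2 T/BraKO libraries. SOX2 peaks at the 1.4 kb site did not follow the medium, with 5.81 and 10.2 in 2 noCHIR libraries, 3.34 in 1 WT CHIR library, 3.85, 9.59 and 3.68 in CdxKO, and 5.24 and 10.5 in 2 T/BraKO libraries. LEF1 was present at this site in all 3 WT libraries, at 10.8, 8.56 and 7.77. No CdxKO LEF1 list held a summit there, and 2 T/BraKO lists did, at 5.75 and 4.72.

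The Tdgf1 element as a whole was accordingly called by LEF1 in 3 of 3 WT libraries and in none of the CdxKO or T/BraKO libraries among the 20000 best peaks. The same pattern was shown by 0.118% of all regions for CdxKO and by 0.337% for T/BraKO. These shares are over the regions of all 3 factors and not only those called by LEF1. In the full lists 2 of 3 CdxKO and 3 of 3 T/BraKO libraries called it, and in the 5000 best peaks the pattern was gone for both mutants. Among the 20000 best peaks, no other element of the 5 genes was called in every library of one genotype and no library of the other for any factor. A second Tdgf1 element, 8.2 kb upstream in an intron of Lrrc2, was among the 20000 best peaks only for SOX2, in 1 WT CHIR, 2 CdxKO and 2 T/BraKO libraries. In the full lists its best SOX2 peaks were 6.07 and 5.20 in 2 noCHIR libraries, 16.4 in 1 WT CHIR library, 4.92, 4.37 and 10.3 in CdxKO, and 7.57 and 8.83 in 2 T/BraKO libraries. The full lists also held LEF1 peaks there in 3 of 3 WT libraries, at 2.79, 3.89 and 5.43, in 2 CdxKO libraries, at 7.14 and 3.16, and in 1 T/BraKO library, at 6.24, and β-catenin peaks of 3.68 to 5.17 in 4 of 9 libraries.

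Of the LEFTY antagonists, Lefty1 differed from Nodal in that SOX2 was already bound strongly there without CHIR. At Lefty1 (ENSMUSG00000038793, chr1:180935022-180938400, plus strand) the site 1.1 kb upstream had SOX2 fold enrichment of 39.3, 35.3 and 20.3 in noCHIR and 34.3, 29.2 and 60.0 in WT CHIR libraries, which overlapped. In CdxKO it was 27.8, 42.2 and 43.9, and in T/BraKO 58.1, 32.4 and 58.4. These peaks ranked between 35 and 824 in their lists. β-catenin at this site was 10.2, 8.60 and 11.9 in WT and 18.1, 8.86 and 8.11 in T/BraKO, and it was 3.81, 6.47 and 6.02 in CdxKO, where all 3 values lay below all 3 WT values. By the gene score defined below, 5.04% of all genes had this order. LEF1 had a summit there in 1 of 3 libraries of each genotype and in none of the 20000 best.

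The Lefty1 site 10.1 kb upstream, whose summit lies just beyond the 10 kb limit and whose edge reaches inside it, was mostly a SOX2 site. Its SOX2 fold enrichment was 6.53, 10.6 and 12.7 in noCHIR, 21.3, 14.2 and 11.8 in WT CHIR, 9.65, 30.6 and 21.4 in CdxKO and 6.85, 24.4 and 14.4 in T/BraKO libraries. The groups overlapped. The weakest noCHIR peak ranked 21603. β-catenin gave a peak in 1 of 3 libraries of each genotype, of 3.80 to 7.38, and no LEF1 library had a summit at the site. Another Lefty1 site, 7.2 kb downstream of the Lefty1 start and 251 bp from the start of Tmem63a, had SOX2 peaks of 10.9, 7.40 and 6.55 in noCHIR against 4.91, 5.44 and 4.58 in WT CHIR libraries. Every noCHIR value at this site lay above every WT CHIR value, but for the element as a whole the best WT CHIR replicate 1 peak was 7.06, above noCHIR replicate 3 at 6.55, so that the groups overlapped. By the gene score defined below, 9.32% of all genes had all 3 noCHIR libraries above all 3 WT CHIR libraries.

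At Lefty2 (ENSMUSG00000066652, chr1:180893108-180899103, plus strand) the main SOX2 site lay 4.3 kb upstream. The WT CHIR and noCHIR values there did not overlap, as 2.0 kb upstream of Nodal and unlike 1.1 kb upstream of Lefty1. SOX2 fold enrichment was 5.05, 4.68 and 5.72 in noCHIR, with ranks of 19846, 29431 and 27271, so that 1 of the 3 fell just inside the 20000 best. It was 10.4, 7.04 and 28.5 in WT CHIR, 11.4, 13.1 and 15.0 in CdxKO, and 24.3, 27.9 and 19.4 in T/BraKO libraries. All 9 libraries with CHIR lay above all 3 without. The share of all regions with this order was not counted. For WT alone, 7.25% of all genes separated in this direction by the gene score defined below. The T/BraKO libraries lay above those of CdxKO, but overlapped with WT through its replicate 3. The share of all regions with T/BraKO above CdxKO was not counted. β-catenin there was weak, at 2.76 to 7.55 in WT, and LEF1 had a summit only in the 3 T/BraKO lists, at 3.75 to 5.00. Those LEF1 peaks ranked 215592 to 552126 in lists of 281971 to 924506 peaks, so none was among the 20000 best. A β-catenin site 9.3 kb upstream had 4.95 to 6.84 in WT and 8.73 and 16.2 in 2 CdxKO libraries and 8.01 in 1 T/BraKO library, with a SOX2 summit in 1 of 12 libraries.

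Foxh1, the DNA-binding partner of SMAD2/3 (ENSMUSG00000033837, chr15:76668225-76669948, minus strand), had a SOX2 peak at its start site in every library. Fold enrichment was 48.0, 32.1 and 16.8 in noCHIR, 18.4, 23.9 and 52.2 in WT CHIR, 44.2, 39.8 and 72.0 in CdxKO and 43.3, 43.1 and 40.0 in T/BraKO libraries. Ranks ran from 39 to 876. The noCHIR and WT CHIR groups spanned nearly the same range, with means of 32.3 and 31.5. β-catenin fold enrichment was lower at the same place, at 4.25, 8.97 and 12.7 in WT, 9.38 and 9.24 in 2 CdxKO libraries and 10.8, 8.64 and 6.34 in T/BraKO. No WT LEF1 list held a peak in the element at the start site, whereas 2 CdxKO lists did, at 6.68 and 8.78, and 2 T/BraKO lists, at 5.65 and 4.51. Only the peak of 8.78, with its summit at -522 bp from the start site, was among the 20000 best. In the element 2.2 kb downstream, in the neighbouring gene Kifc2, LEF1 peaks were 8.48 and 6.99 in 2 WT libraries and 6.59 and 3.84 in 2 CdxKO libraries, and no T/BraKO list held one.

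**Figure D2:**
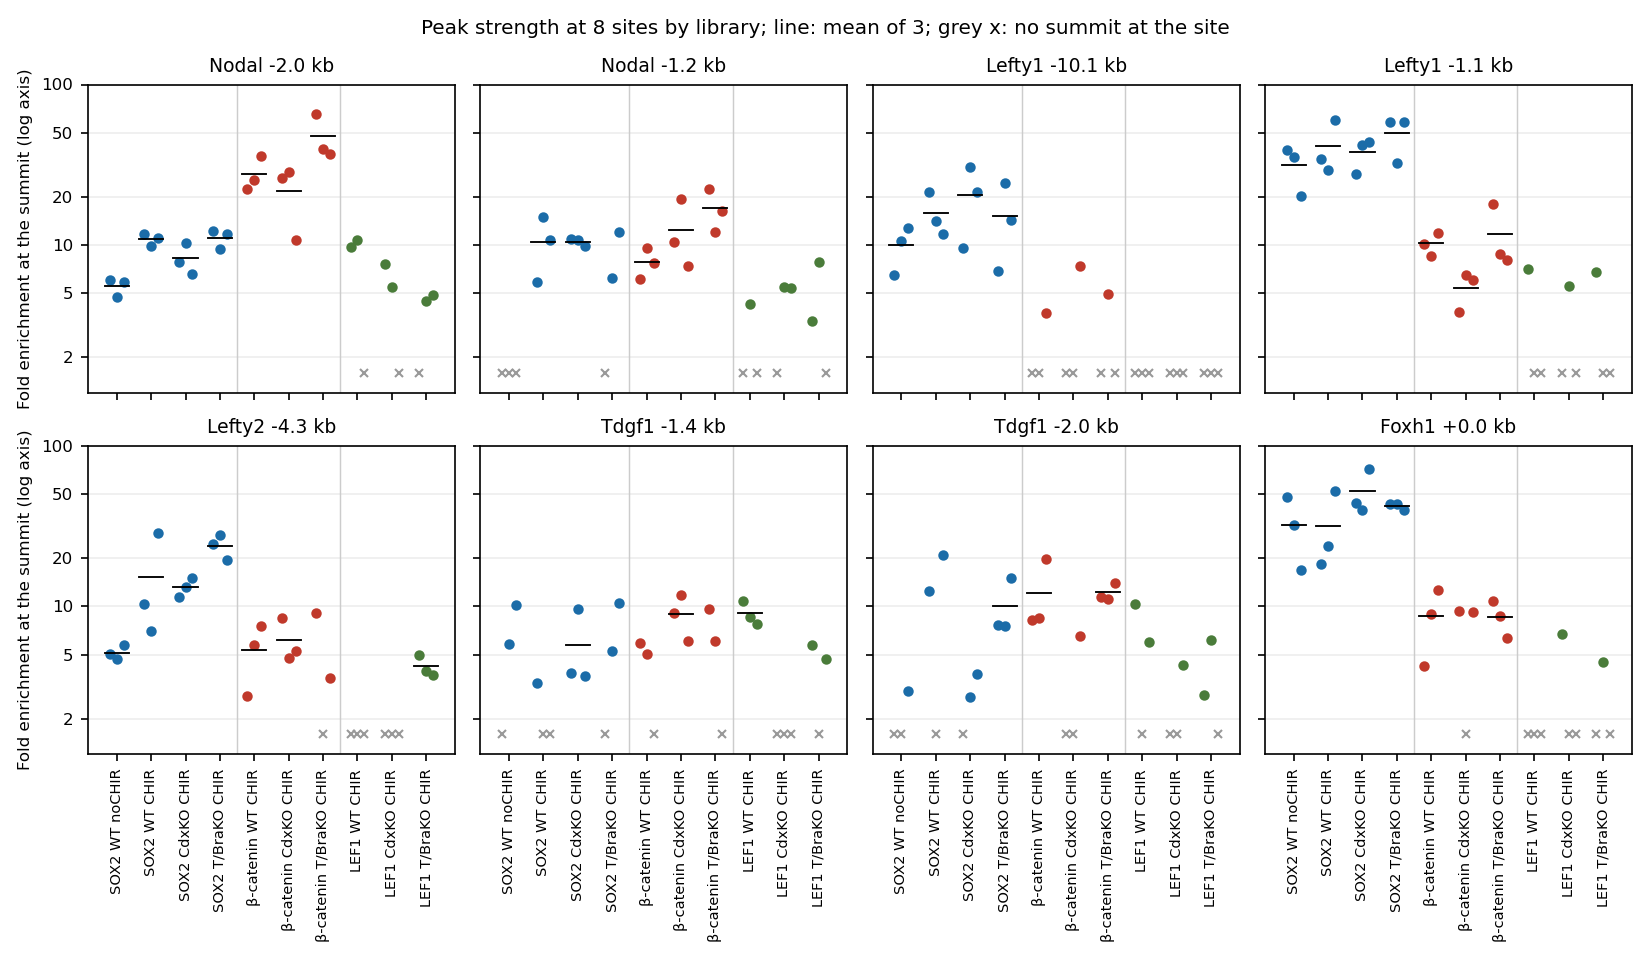
Fold enrichment of the peak summit (log axis) at 8 sites in each library, by factor and group; dots are libraries, the short line is the mean where all 3 libraries had a summit, and a grey cross marks a library without one. SOX2 at Nodal 2.0 kb and Lefty2 4.3 kb upstream is higher in the 9 libraries with CHIR than in the 3 without, whereas at Lefty1 1.1 kb upstream and at the Foxh1 start WT CHIR and noCHIR overlap. The share of all regions with the former order was not counted.

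To set the 5 genes beside all others, each gene was given a score, the log2 of 1 plus the fold enrichment of the best-ranked peak in its window, after quantile normalization between the libraries of a factor. All 5 genes passed the filter on windows with few peaks for every factor. For SOX2 the mean score in WT CHIR minus noCHIR was 1.22 for Nodal, 1.08 for Lefty2, 0.90 for Lefty1, 0.75 for Tdgf1 and 0.44 for Foxh1. The median over all 21090 genes was 0.01, and 0.578% of genes had a larger difference than Nodal. The share was 1.04% for Lefty2, 2.30% for Lefty1, 4.46% for Tdgf1 and 15.9% for Foxh1. Nodal scored 2.82, 2.60 and 2.65 without CHIR and 3.38, 4.68 and 3.66 with it. The 3 CHIR scores lay above the 3 noCHIR scores for Nodal, Lefty1 and Lefty2 and overlapped for Tdgf1 and Foxh1, and 7.25% of all genes separated in this direction. Before normalization the best peaks of Nodal and Lefty2 also separated. Those of Lefty1 overlapped, at 39.3, 35.3 and 20.3 without CHIR and 34.3, 29.2 and 60.0 with it. At Foxh1 the mean fold enrichment was 32.3 without CHIR and 31.5 with it, so its score rose only after normalization. Without replicate 1 of WT CHIR, the library with the longest list, a choice made after the values were seen, the differences were 1.48 for Nodal, 1.37 for Lefty2, 1.05 for Lefty1, 0.56 for Tdgf1 and 0.79 for Foxh1.

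**Figure D3:**
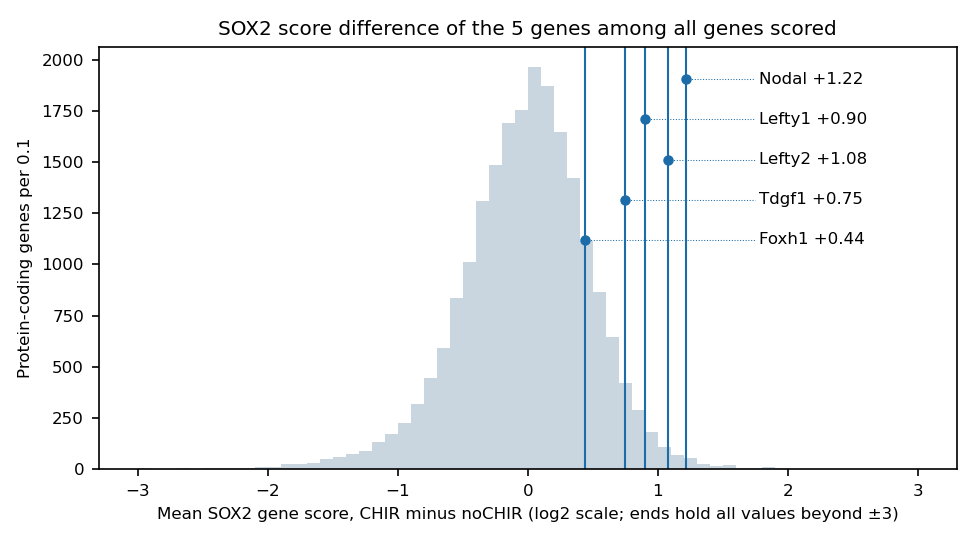
Distribution over all 21090 genes of the mean SOX2 gene score in WT CHIR minus noCHIR libraries (log2 scale, genes per bin of 0.1), with the 5 genes marked. All 5 lie to the right of the median of 0.01, from 0.44 for Foxh1 to 1.22 for Nodal. Of all genes, 15.9% had a larger difference than Foxh1, 4.46% than Tdgf1 and 0.578% than Nodal. The genes were chosen with this contrast in view.

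The genes whose SOX2 score was most like that of Nodal over the 12 SOX2 libraries were Ptk2 with a Pearson r of 0.93, Dzank1 with 0.91, and Ttbk2, Ptpn20 and Ndufs4 with 0.90 each, of 21088 genes compared. The other members gave 0.73 for Lefty1, 0.53 for Foxh1, 0.49 for Lefty2 and 0.09 for Tdgf1. The points share libraries and list lengths, and these values are descriptions.

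The genotype comparisons were tested with limma across all genes with Benjamini-Hochberg adjustment. The SOX2 WT CHIR libraries, in view when the genes were chosen, are also the WT group of both SOX2 comparisons. Those comparisons are therefore not independent of the choice. No member passed the threshold of 0.05 in any of the 6 comparisons of a mutant with WT. Few genes did in all. For SOX2, 9 of 21090 genes (0.0427%) were called in CdxKO and 2 (0.00948%) in T/BraKO. For β-catenin 46 of 19921 (0.231%) and 202 (1.01%) were called, most of them lower in the mutant, with 42 and 182. For LEF1, 0 of 21440 genes (0%) were called by limma in CdxKO, where 1000 had an unadjusted p under 0.05, and 5 (0.0233%) in T/BraKO.

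β-catenin at Nodal scored 4.72, 4.81 and 4.95 in WT and 5.81, 5.44 and 5.30 in T/BraKO cells. The difference was 0.69 ± 0.35 (SE, 95% interval -0.02 to 1.40, adjusted p = 0.671 by limma). All 3 T/BraKO libraries lay above WT, as they did for 6.65% of all genes. In CdxKO the difference was -0.33 ± 0.35 (interval -1.04 to 0.38, adjusted p = 0.886). SOX2 at Nodal differed from WT by -0.37 ± 0.31 in CdxKO and by -0.15 ± 0.31 in T/BraKO (adjusted p = 0.769 and 0.938, limma), with intervals of -1.01 to 0.27 and -0.79 to 0.49.

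LEF1 scored lower at Nodal in both mutants. WT libraries scored 3.38, 3.51 and 3.28, CdxKO libraries 3.03, 2.65 and 3.02, and T/BraKO libraries 3.02, 2.99 and 2.68. The differences were -0.49 ± 0.18 in each mutant (intervals -0.88 to -0.10), and neither passed (limma adjusted p = 0.984 and 0.973). LEF1 at Tdgf1 differed by -0.62 ± 0.21 in CdxKO and -0.47 ± 0.21 in T/BraKO (limma adjusted p = 0.984 and 0.973). All 3 mutant libraries lay below WT at Nodal and Tdgf1 in CdxKO, and at Nodal in T/BraKO, as did 5.14% and 4.88% of all genes. The best-ranked LEF1 peak of a window was often not at the sites named above. At Nodal it lay 15474 bp downstream of the start site in WT replicate 3.

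Lefty1 had a lower β-catenin score in CdxKO than in WT by 0.73 on the log2 scale, with means of 2.73 and 3.47 (interval of the difference -1.39 to -0.07, limma adjusted p = 0.616). The 3 CdxKO libraries lay below WT, as for 5.04% of all genes. Lefty2 had the largest SOX2 difference of the members, 1.05 ± 0.36 higher in T/BraKO than in WT (interval 0.31 to 1.80, limma adjusted p = 0.475). It was the one member to pass under any alternative, when WT CHIR replicate 3 was left out, at 1.66 with an adjusted p of 0.0160, and adjusted p ran from 0.0160 to 0.957 over all 22 alternatives. The remaining differences for the members lay between -0.62 and 0.58 and all their intervals included 0.

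**Figure D4:**
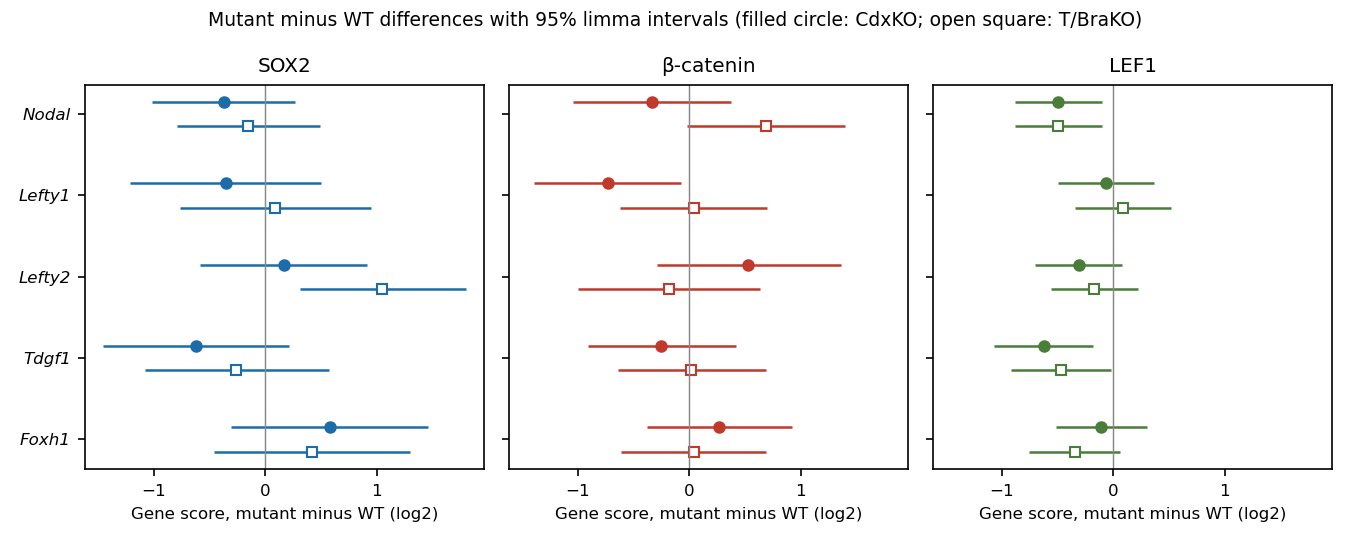
Gene score of each mutant minus WT (log2) for the 5 genes and each factor, with 95% limma intervals; filled circles are CdxKO and open squares T/BraKO. Most intervals cross 0, and those that do not, such as Lefty2 for SOX2 in T/BraKO and Nodal for LEF1 in both mutants, had adjusted p of 0.475 or more.

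Of 24 further genes of the Nodal/Activin pathway (receptors and the co-receptor Cfc1, ligands and their processing enzymes, SMAD effectors, inhibitors and target transcription factors), all were tested for every factor and 1 passed in 1 comparison. The list was chosen with earlier results of these data known. In the comparison concerned, β-catenin in CdxKO with WT, 46 of 19921 genes (0.231%) passed. The gene of the list among them was Acvr1b, the type I Activin/Nodal receptor. Its best β-catenin peak had a fold enrichment of 72.4, 33.3 and 74.0 in WT, 10.0, 7.32 and 14.5 in CdxKO, and 56.3, 28.6 and 72.3 in T/BraKO libraries. The WT and T/BraKO summits all lay 8.7 kb downstream of the start site, whereas the best peak of CdxKO replicate 1 lay at 1.7 kb. The score was -2.26 ± 0.37 in CdxKO minus WT (limma adjusted p = 0.00141), and it stayed past the threshold under all 19 alternatives, at -3.42 to -2.01 with adjusted p from 6.22e-07 to 0.0478. In the other 5 comparisons no gene of this list passed (limma). Medians over the list ran from -0.12 to 0.16, beside -0.01 to 0.03 over all genes.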

How the data were processed

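Per the labels and the study's methods, the authors aligned single-end reads to mm10 with BWA in the nf-core chipseq pipeline and called narrow peaks with MACS2, with one deposited list per library. The pairing of inputs with libraries for peak calling is not given in the sources used here, and the 12 inputs were not analysed here. The deposited values used were the fold enrichment at the summit (a ratio), the −log10 p and −log10 q, and the summit position. The deposited score was not used. The lists hold no read counts, so the depth per library is unknown.

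Peaks on chromosomes 1 to 19, X and Y were ranked by −log10 q. Gene bodies came from GENCODE M21, on the build of the lists. For the gene score, the best-ranked peak of the full list in the window of 10 kb around a gene body was taken, a window without a peak was set to a fold enrichment of 1, and log2(fold enrichment + 1) was quantile normalized between the libraries of a factor. Fold changes on this scale understate those of weak peaks. Windows holding a peak in 2 or more of the 3 libraries of any group were tested with limma 3.58.1 (lmFit, eBayes with trend) in R 4.3.3, with all libraries of a factor in one fit and Benjamini-Hochberg adjustment over all genes of a comparison. Comparisons of 3 against 3 libraries cannot give an exact permutation p below 0.1, so presence patterns were counted without a test. Summits at most 300 bp apart were joined into sites, and a library had a summit at a site within 150 bp of its outermost summits. Motif windows reached 100 bp to each side of a summit. The scripts were tested on simulated data.

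The 5 genes and the pathway list were chosen with earlier results of these data known. Named genes were the 5 members, any gene of the pathway list past the threshold, and the 5 genes with the highest correlation to Nodal over SOX2 libraries, leaving out windows that overlap that of Nodal. Alternatives covered the filter, pseudocount, strength measure, normalization, list length, threshold, window, replicate block and each library left out. For other list lengths the 14 elements were kept and only the calls changed. One sequence is not reported here.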

Additional observations from a re-analysis of the deposited data

How the results depend on the processing

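Correlations of deviations from the group mean between same-numbered libraries reached at most 0.067 over 9 pairs each for β-catenin and LEF1 and 18 for SOX2, with means of 0.018, 0.012 and 0.013 against -0.009, -0.006 and -0.007 for other numbers. None was over 0.1, so the numbers were not taken as pairs. The highest mean correlation was with the own number for 7 of 12 SOX2, 5 of 9 β-catenin and 4 of 9 LEF1 libraries, where chance gives 4, 3 and 3, a hint from the data and not the design. With the replicate number as a block, limma called 17, 4, 64, 242, 0 and 6 genes, in the order SOX2 CdxKO, SOX2 T/BraKO, β-catenin CdxKO, β-catenin T/BraKO, LEF1 CdxKO and LEF1 T/BraKO, against 9, 2, 46, 202, 0 and 5 without it. No member passed in any fit other than Lefty2 as given above. In the same order of comparisons, other settings moved the counts by over 1.5 times as follows. Median centring gave 0, 0, 19 and, for LEF1 T/BraKO, 3. Deposited −log10 q as strength gave 15, 4 and 93. A −log10 q of at least 5 gave 37, 15, 78 and, for LEF1 CdxKO, 2. The 50 kb window gave 4 and 5 for SOX2, 431 for β-catenin T/BraKO and 1 for LEF1 T/BraKO. The gene body alone gave 1 for SOX2 T/BraKO, 120 for β-catenin T/BraKO, and 1 and 2 for LEF1. Windows with a peak in every library gave 0 for SOX2 T/BraKO, and 28 and 117 for β-catenin. The 20000 best peaks gave 0 for SOX2 T/BraKO, 25 for β-catenin CdxKO and 0 for LEF1 T/BraKO, and no filter gave 4 for LEF1 CdxKO. Leaving out single libraries gave 0 to 45, 0 to 29, 18 to 50, 123 to 230, 0 to 1 and 2 to 9 genes. The SOX2 counts were highest without WT CHIR replicate 3.

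Of differences that reversed, those with the gene body alone were Lefty2 SOX2 T/BraKO at -0.29, and for Nodal 1.58 and 1.30 for SOX2 in CdxKO and T/BraKO, 0.40 for β-catenin CdxKO and 0.11 for LEF1 T/BraKO, with Tdgf1 LEF1 T/BraKO at 0.03. The gene body leaves out the upstream sites. Nodal SOX2 T/BraKO was 0.28 with median centring. With single libraries left out, SOX2 at Nodal ran from -0.65 to 0.02 in CdxKO and from -0.43 to 0.25 in T/BraKO, and β-catenin in CdxKO from -0.61 to 0.10. The reversals were 0.02 and 0.25 without WT CHIR replicate 2, 0.03 without T/BraKO replicate 2, and 0.10 without CdxKO replicate 3.

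The number of elements in one group only was 1 for SOX2 CHIR, and 0 in the full lists and in those with −log10 q of at least 5, and 2 when peaks were ranked by fold enrichment. For LEF1 it was 1 in each mutant, 0 in the 5000 best peaks, and 0 for T/BraKO with −log10 q of at least 5. In the full lists it was also 1 in each, but not the Tdgf1 element, which the mutants then called too. Without single libraries it was 1 to 2 for SOX2 CHIR and for each LEF1 comparison, 0 to 1 for SOX2 in each mutant and for β-catenin T/BraKO, and 0 to 0 for β-catenin CdxKO. Mean peak numbers per window moved by more than 1 SD in 108 cases with other lists or windows and stayed within it in 42. The causes were not tested. Depth is unknown, so a missing weak peak cannot be told from absence.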
